A study of Mus musculus with 10 samples.

Results

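The genes of coenzyme A supply, 10 in all, were followed in mouse colon organoids, cultures of intestinal epithelium grown from crypt cells: the pantetheinase genes Vnn1 and Vnn3, the vitamin transporter gene Slc5a6, the pantothenate kinase genes Pank1, Pank2, Pank3 and Pank4, and the genes Ppcs, Ppcdc and Coasy of the later steps. They were taken by symbol from a table of 56748 genes, where all 10 were found, each as a single protein-coding gene, and 9 passed the filter for testing. The list was chosen by gene name, with the fold changes of WY-14643 over vehicle in these same libraries known (Ppcs and Vnn1 among them), so the differences between groups are a description and support nothing. The organoids received WY-14643, an agonist of the fatty acid receptor PPARα, at 100 µM for 2 days, or vehicle for the same time, both starting 3 days after passaging. There were 5 WY-14643 libraries (replicates 6 to 10) and 5 vehicle libraries (replicates 1 to 5) of polyadenylated RNA. No group had PPARα removed or blocked. The sources used here do not give strain, genotype, sex, age or the number of organoid lines or animals, so the p-values measure the spread between libraries, which may be technical.

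Coenzyme A carries the acyl groups of fatty acid oxidation, fatty acid synthesis and the citric acid cycle. Cells make it from pantothenate, vitamin B5, which the sodium-dependent multivitamin transporter Slc5a6 takes up together with biotin and lipoate. Pantothenate kinases add a phosphate in the step that limits the rate, Ppcs joins the product to cysteine, Ppcdc removes a carboxyl group, and the bifunctional Coasy finishes the molecule. Vanin-1, the product of Vnn1, works in the other direction outside the cell: this surface-anchored enzyme splits pantetheine into pantothenate and cysteamine. Vnn1 is a known target of PPARα in mouse liver, and the enzyme is present on the gut epithelium.

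Levels are in FPKM, the authors' fragments per kilobase of gene, scaled by library. They can be compared between genes only as far as the gene lengths of the deposited table hold. Between 16136440 and 22209003 gene-assigned reads stood behind the WY-14643 libraries and between 15618244 and 29271304 behind the vehicle libraries. The libraries matched in numerical order: the deviations of WY-14643 replicate 6 from its group went with those of vehicle replicate 1, and so on to replicates 10 and 5, with correlations across 13607 genes of 0.423 to 0.782, against at most 0.0602 for unmatched libraries. No label states these pairs, which are called pairs 1 to 5 here. Over all tested genes, a median of 83.6% of the spread of log2 levels lay between pairs and 2.27% between treatments.

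Epithelial markers were high in every library, led by Krt19 at 1797 ± 454 FPKM in WY-14643 and 1841 ± 365 FPKM in vehicle libraries, and by Krt8 at 1735 ± 672 FPKM in WY-14643 and 1713 ± 482 FPKM in vehicle libraries (SD, n = 5 each). Of the 8 colonocyte markers, led by Car1 and Krt20, 6 were tested. All 6 had a higher mean log2 level after WY-14643, as had 47.1% of all tested genes, with a median log2 fold change of 0.40. The summed level of that list overlapped between the groups, at 60.3 to 1879 FPKM in WY-14643 and 35.5 to 990.3 FPKM in vehicle libraries, and Car4 was at 0 throughout. Goblet cell markers, led by Agr2 and Tff3, ran the other way: 4 of 5 tested had a lower mean, with a median of -0.28. Muc2 and Clca1 were lower in 5 of 5 pairs, as were 6.09% of all tested genes. The goblet list summed to 18.5 to 73.3 FPKM in WY-14643 and 33.4 to 73.7 FPKM in vehicle libraries. Of the 4 tested stem cell markers, led by Lrig1 and Axin2, 2 had a higher and 2 a lower mean. Lgr5 was lower in 5 of 5 pairs (6.09% of all tested genes) with a log2 fold change of -0.27, and Ascl2 was higher in 4 of 5 with 0.25. Of the 5 cycling markers, led by Pcna and Mki67, 3 had a higher and 2 a lower mean log2 level. None of these markers passed, without pairs or with pairs as a block (limma).

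Markers of cells outside the epithelium were low. The leukocyte list summed to 2.0 to 6.44 FPKM in WY-14643 and 2.35 to 5.30 FPKM in vehicle libraries, nearly all of it Cd68, a macrophage marker, at 3.56 ± 1.66 FPKM in WY-14643 and 3.93 ± 1.25 FPKM in vehicle libraries (SD, n = 5 each). Cd79a was next in that list, and Cd3e and Lyz2 were at 0 in all libraries. The mesenchymal list, led by Col1a1 and Acta2, summed to at most 0.295 FPKM in WY-14643 and 0.201 FPKM in vehicle libraries. The endothelial list, led by Pecam1 and Cdh5, summed to at most 0.0237 FPKM in WY-14643 and 0.0409 FPKM in vehicle libraries. Within the epithelium, enteroendocrine markers, led by Chgb and Chga, summed to at most 1.69 FPKM in WY-14643 and 2.04 FPKM in vehicle libraries, and tuft cell markers, led by Avil and Trpm5, to at most 0.441 and 0.365 FPKM. In these bulk samples a change in the share of a cell type and a change in RNA per cell cannot be told apart. The part of these markers in the values that follow was not tested.

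Ppcs stood apart from the other genes of the pathway. Its product, phosphopantothenoylcysteine synthetase, catalyses the step after the kinases. In WY-14643 replicates 6 to 10 it was at 16.4, 22.8, 18.3, 17.2 and 18.0 FPKM, against 10.3, 10.6, 10.01, 9.33 and 15.6 FPKM in vehicle replicates 1 to 5. The groups did not overlap, with WY-14643 higher throughout, and the gap between the groups was narrow because vehicle replicate 5 stood well above the other vehicle libraries. The means were 18.5 ± 2.47 FPKM in WY-14643 and 11.2 ± 2.53 FPKM in vehicle libraries (SD, n = 5 each), a ratio of 1.66. Behind these values were 419 to 670 reads in WY-14643 and 236 to 538 reads in vehicle libraries.

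On the log2(FPKM + 1) scale, which understates differences of genes with low levels, Ppcs differed by 0.69 ± 0.14 (SE) and ranked 19th by p among the 13607 genes tested. It did not pass over all genes (limma, adjusted p = 0.304). A fit with the pairs as a block gave the same difference with an SE of 0.11 and an adjusted p of 0.0824 (limma). A fit with a quality weight for each library called Ppcs higher (limma, log2 fold change 0.76, adjusted p = 0.0175). Those weights rest on 1 pair: vehicle replicate 3 weighed 4.35 and WY-14643 replicate 8 weighed 3.90, against at most 1.02 for any other library. Within pairs 1 to 5 the ratio of WY-14643 to vehicle was 1.60, 2.14, 1.82, 1.84 and 1.15, so pair 5 moved least. Pair 5 was also lowest over 9 tested PPARα target genes, whose mean log2 difference was 1.11, 1.10, 1.06, 1.42 and 0.41 in pairs 1 to 5.

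**Figure D1:**
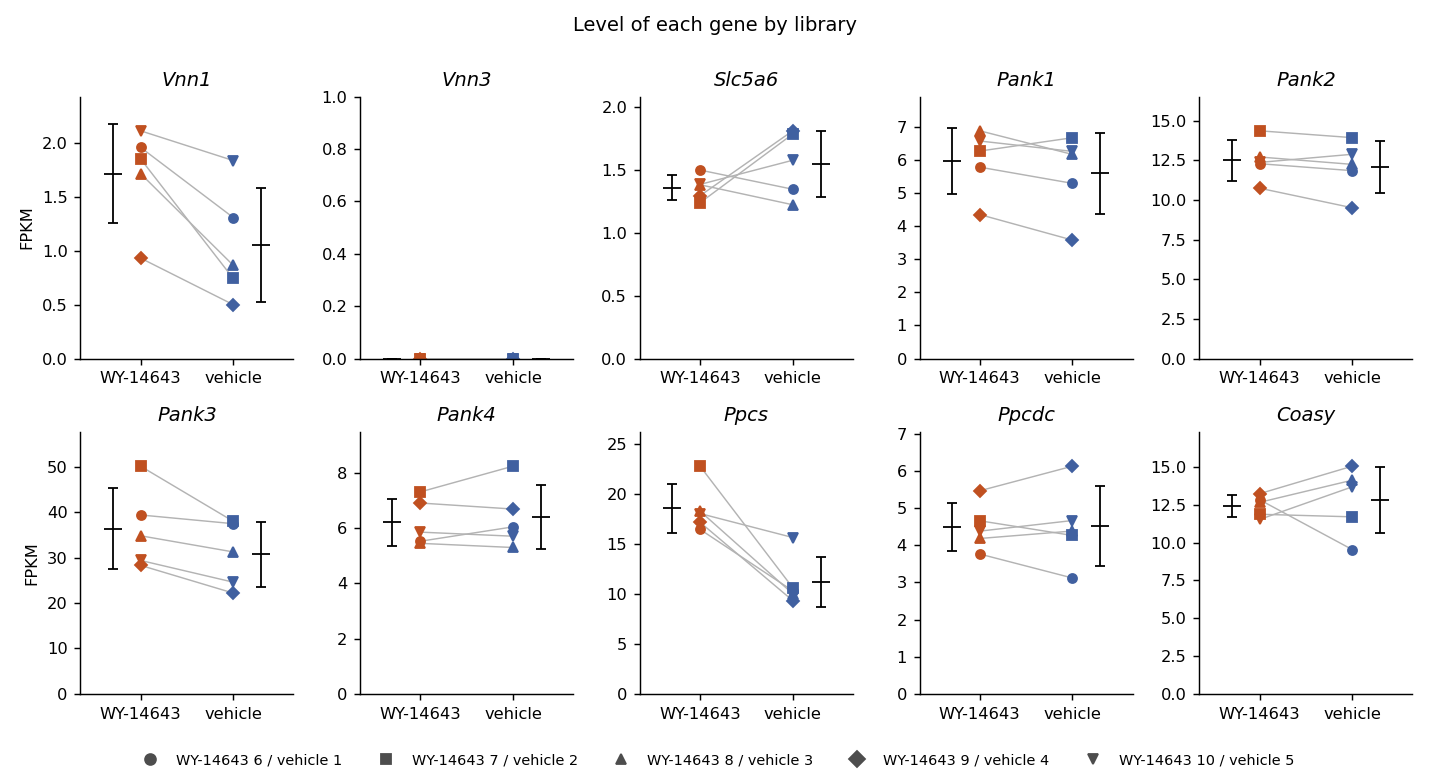
Level of each of the 10 genes in FPKM (vertical axes from 0) in the WY-14643 libraries on the left and the vehicle libraries on the right of each panel. Symbols mark the numerical pair, grey lines join its libraries, and bars give mean ± SD of 5 libraries. Only in the Ppcs panel do the groups not overlap, while Vnn3 lies at 0 in all 10 libraries.

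Ppcs spans chromosome 4 from 119275727 to 119279617 on the minus strand in build mm39 (ENSMUSG00000028636), and no other gene of the table overlaps it. Pank3, described below, spans chromosome 11 from 35660311 to 35682112 on the plus strand (ENSMUSG00000018846). These are the members with a promoter sequence at hand whose level was higher in every pair, so the 250 bases before the start of each are shown, from RefSeq in build GRCm38.p6, which is not the build of the gene table. PPARα binds with its partner RXR to a pair of AGGTCA hexamers with 1 base between them. Capitals mark AGGTCA.
Ppcs, minus strand, chr4:119422421-119422670: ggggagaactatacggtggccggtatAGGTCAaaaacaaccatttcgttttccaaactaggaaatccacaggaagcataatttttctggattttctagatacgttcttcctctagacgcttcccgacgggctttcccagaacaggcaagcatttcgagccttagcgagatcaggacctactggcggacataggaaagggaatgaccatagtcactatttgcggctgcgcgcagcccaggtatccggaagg
Pank3, plus strand, chr11:35769245-35769494: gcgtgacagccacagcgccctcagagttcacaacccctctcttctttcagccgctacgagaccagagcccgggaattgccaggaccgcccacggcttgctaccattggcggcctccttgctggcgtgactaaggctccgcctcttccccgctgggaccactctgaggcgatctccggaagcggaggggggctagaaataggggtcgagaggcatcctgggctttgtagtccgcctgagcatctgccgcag
The single hexamer of the Ppcs window begins 224 bases before the start, and the Pank3 window holds none on either strand. The table had 12 windows for 8 of the 10 genes, all but Vnn1 and Coasy. The hexamer AGGTCA was found, on either strand, in 1 of these 12 windows and in 14% of 32851 windows of all genes. The full element, AGGTCA, then any base, then AGGTCA again on the same strand, also counts for the hexamer and was found in 0 of the 12 and in 0.0335% of all windows. A match of letters is a description and not a binding site.

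Vnn1 was a low-level gene with a higher level in every WY-14643 library than in its vehicle partner. It was at 1.96, 1.85, 1.71, 0.930 and 2.11 FPKM in WY-14643 replicates 6 to 10, against 1.31, 0.741, 0.863, 0.499 and 1.83 FPKM in vehicle replicates 1 to 5. The groups overlapped, because WY-14643 replicate 9 lay below vehicle replicate 1 and vehicle replicate 5 reached the level of the WY-14643 libraries. The means were 1.71 ± 0.460 FPKM in WY-14643 and 1.05 ± 0.528 FPKM in vehicle libraries (SD, n = 5 each), a ratio of 1.63. Between 40 and 118 reads in WY-14643 and 19 and 95 reads in vehicle libraries stood behind these values, so Vnn1 had the lowest read numbers of the 9 tested genes.

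The log2 fold change of Vnn1 was 0.42 ± 0.19 (SE) with an adjusted p of 1.0 (limma), and its adjusted p was 0.173 with pairs as a block (limma). The size depends on the scale: the log2 fold change was 0.73 with a pseudocount of 0.1 and 0.80 with voom on the recovered reads. Within pairs 1 to 5 the ratio of WY-14643 to vehicle was 1.497, 2.50, 1.98, 1.86 and 1.15. Pair 5, the pair with the smallest difference, had the highest Vnn1 of both groups. Pair 4 had the lowest Vnn1 of both groups, and it also had the lowest sum of the cycling markers, 60.5 FPKM in WY-14643 replicate 9 and 49.2 FPKM in vehicle replicate 4. The highest cycling sums were not in pair 5 but in pair 1, at 261.2 FPKM in WY-14643 replicate 6 and 277.9 FPKM in vehicle replicate 1. Pair 5 had the lowest colonocyte sums, 60.3 FPKM in WY-14643 replicate 10 and 35.5 FPKM in vehicle replicate 5. The part of cell composition in the level of Vnn1 was not tested.

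Vnn3, the second pantetheinase gene of the mouse, was at 0 reads in all 10 libraries. The limit of 3 reads that a count of 0 allows corresponds to 0.0570 to 0.105 FPKM by library, for counting error only. The genes lie side by side on chromosome 10 in build mm39, Vnn3 from 23727360 to 23745741 (ENSMUSG00000020010) and Vnn1 from 23770586 to 23781241 (ENSMUSG00000037440), both on the plus strand. Their coding sequences, of 1500 and 1536 bases in GENCODE M21, were 66.2% identical over 1460 aligned bases, and the longest run they shared was 12 bases. Of 24 other genes within 200 kb, 1 passed the filter: Rps12, a ribosomal protein gene, at 70.4 ± 15.9 FPKM in WY-14643 and 69.0 ± 13.8 FPKM in vehicle libraries (SD, n = 5 each). The 14 trace amine receptor genes of the same stretch reached at most 0.104 FPKM in any library, and 11 of them were at 0 in all. Apart from Rps12 and Vnn1, the stretch held no gene above the filter.

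The transporter gene Slc5a6 (chromosome 5 from 31193380 to 31206268, ENSMUSG00000006641) was low in all libraries. It was at 1.499, 1.24, 1.38, 1.295 and 1.39 FPKM in WY-14643 replicates 6 to 10, against 1.35, 1.79, 1.22, 1.81 and 1.58 FPKM in vehicle replicates 1 to 5. The WY-14643 libraries lay within the range of the vehicle libraries. The log2 fold change was -0.11 ± 0.10 (SE; limma, adjusted p = 1.0), with a higher level in 2 of 5 pairs. The span of Slc5a6 shares 613 bases with Atraid on the opposite strand, which was at 16.7 ± 3.62 FPKM in WY-14643 and 15.0 ± 2.37 FPKM in vehicle libraries (SD, n = 5 each). The strand setting of the counts is not given in the sources used here, nor is the handling of reads that overlap both genes. Reads of the shared bases may therefore have gone to either gene or to neither.

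Pank3 was the most abundant of the 10 genes and of the kinases. It was at 39.4, 50.1, 34.8, 28.3 and 29.4 FPKM in WY-14643 replicates 6 to 10, against 37.5, 38.0, 31.3, 22.2 and 24.6 FPKM in vehicle replicates 1 to 5. It was higher in the WY-14643 library of all 5 pairs, by a ratio between 1.05 and 1.32, while the groups overlapped widely. The means were 36.4 ± 8.87 FPKM in WY-14643 and 30.7 ± 7.23 FPKM in vehicle libraries (SD, n = 5 each). The log2 fold change of 0.24 ± 0.19 (SE) did not pass without pairs (limma, adjusted p = 1.0), nor with pairs as a block, where its SE was 0.056 (limma, adjusted p = 0.181).

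The other genes of the kinase family differed by less than their spread. Pank1, a kinase known for its part in the fasted mouse liver, was at 5.98 ± 0.994 FPKM in WY-14643 and 5.60 ± 1.24 FPKM in vehicle libraries. Pank2 was at 12.5 ± 1.29 and 12.1 ± 1.64 FPKM in WY-14643 and vehicle libraries. Mutations in its human counterpart cause a neurodegeneration with brain iron. Pank4, which lacks kinase activity and acts as a phosphatase, was at 6.21 ± 0.848 FPKM in WY-14643 and 6.40 ± 1.15 FPKM in vehicle libraries (SD, n = 5 each for all 3 genes). Their log2 fold changes were 0.09 ± 0.16, 0.05 ± 0.11 and -0.03 ± 0.12 (SE), each with an adjusted p of 1.0 (limma). Pank1 and Pank2 were each higher in 4 of 5 pairs and Pank4 in 3 of 5. In build mm39 Pank1 spans chromosome 19 from 34784340 to 34856855 (minus strand, ENSMUSG00000033610), Pank2 chromosome 2 from 131104415 to 131141108 (plus strand, ENSMUSG00000037514) and Pank4 chromosome 4 from 155048580 to 155065395 (plus strand, ENSMUSG00000029056). The span of Pank2 shares 1125 bases with Rnf24 on the opposite strand, at 3.44 ± 0.558 FPKM in WY-14643 and 3.23 ± 0.538 FPKM in vehicle libraries, so the limit given for Slc5a6 holds here too. Summed over the family, Pank4 included, RNA was at 61.1 ± 10.7 FPKM in WY-14643 and 54.8 ± 9.65 FPKM in vehicle libraries. Pank3 made up 59.1% ± 4.20 of that sum in WY-14643 and 55.6% ± 4.55 in vehicle libraries (SD, n = 5 each).

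Pank1, Pank2 and Pank3 each hold a microRNA gene in an intron, on their own strand, in GENCODE M21 and RefSeq (GRCm38). The mature 3p forms are shown because the 3 kinase genes share this feature; capitals mark the seed, bases 2 to 8, which is the same in all.
miR-103-3p, from Mir103-1 in Pank3 and Mir103-2 in Pank2: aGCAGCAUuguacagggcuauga
miR-107-3p, from Mir107 in Pank1: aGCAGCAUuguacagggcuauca
They differ at 1 of 23 bases, G22C, counted from the 5′ end with miR-103-3p first. Libraries of polyadenylated RNA do not measure mature microRNAs. In the gene table Mir103-1 and Mir107 were at 0 in all libraries, and Mir103-2 was at 1.24 ± 1.73 FPKM in WY-14643 and 1.94 ± 1.60 FPKM in vehicle libraries (SD, n = 5 each) over a gene of 86 bases. The coding sequences of Pank1, Pank2 and Pank3 were 71.5% to 73.4% identical, with runs of at most 28 shared bases. The rest of these genes was not compared, and how far their reads can be told apart was not tested.

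At the steps after Ppcs the groups overlapped. Ppcdc, the decarboxylase (chromosome 9 from 57292378 to 57347407, ENSMUSG00000063849), was at 3.77, 4.66, 4.19, 5.47 and 4.38 FPKM in WY-14643 replicates 6 to 10, against 3.12, 4.27, 4.39, 6.13 and 4.67 FPKM in vehicle replicates 1 to 5. Its values followed the pairs, with pair 1 lowest and pair 4 highest in both groups, and 90.2% of its spread lay between pairs. Coasy, the last enzyme (chromosome 11 from 100973391 to 100977445, ENSMUSG00000001755), was at 12.8, 11.9, 12.7, 13.2 and 11.5 FPKM in WY-14643 replicates 6 to 10, against 9.54, 11.7, 14.1, 15.0 and 13.7 FPKM in vehicle replicates 1 to 5. Its WY-14643 values were closer together and lay within the vehicle range. The log2 fold changes were 0.0089 ± 0.14 for Ppcdc and -0.03 ± 0.12 for Coasy (SE; limma, adjusted p = 1.0 for each), and each gene was higher in 2 of 5 pairs.

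Set against Coasy in the same library, Ppcs stood at a ratio of 1.501 ± 0.260 in WY-14643 and 0.892 ± 0.227 in vehicle libraries (SD, n = 5 each). The ratio ran from 1.28 to 1.92 in WY-14643 and from 0.620 to 1.14 in vehicle libraries, without overlap. Against Ppcdc the ratio of Ppcs was 4.17 ± 0.644 in WY-14643 and 2.59 ± 0.763 in vehicle libraries, and here WY-14643 replicate 9 overlapped with the vehicle range. The ratio of Ppcdc to Coasy was 0.362 ± 0.0490 in WY-14643 and 0.3503 ± 0.0377 in vehicle libraries.

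**Figure D2:**
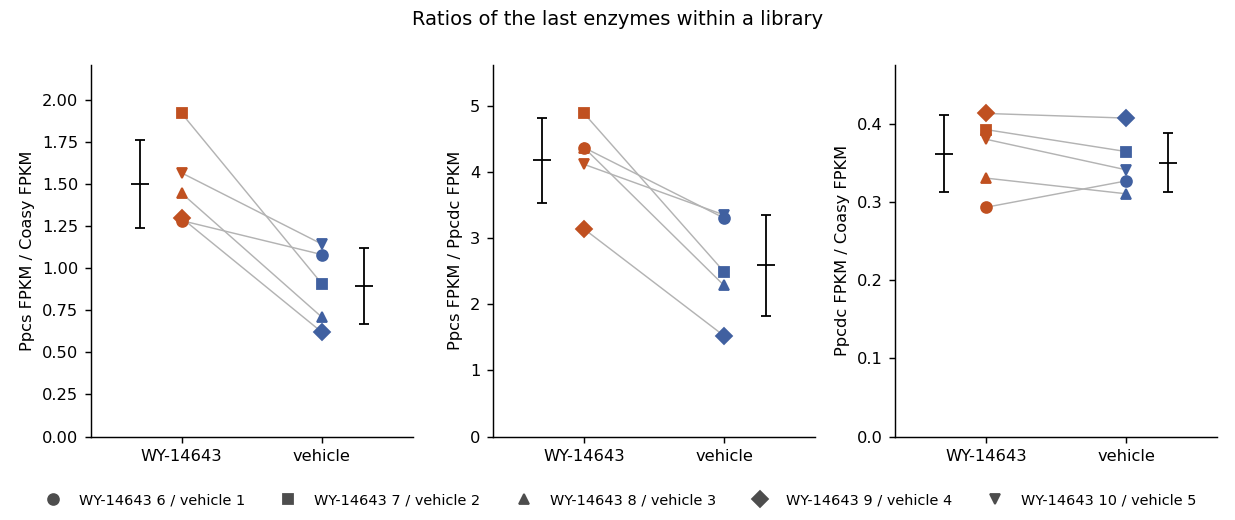
Ratios of FPKM between the last enzymes within each library (vertical axes from 0), WY-14643 on the left and vehicle on the right, with symbols for the pairs and bars for mean ± SD of 5 libraries. Ppcs over Coasy lies between 1.28 and 1.92 in WY-14643 and between 0.620 and 1.14 in vehicle libraries, and Ppcdc over Coasy overlaps.

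Of the 9 tested genes, 0 were called higher and 0 lower (limma, adjusted p under 0.05), as were 0% of the 13607 genes in either direction. At an unadjusted p under 0.05 stood 1 of the 9 and 1.51% of all genes, and voom on the recovered reads called 0% of all genes, with 1.26% at an unadjusted p under 0.05. With pairs as a block 0 of the 9 were called, against 0.287% of all genes called higher and 0.0294% called lower. With library weights 1 of the 9 was called higher, against 0.132% of all genes, and 0 were called lower, against 0.022%. In 1 of the 9 the groups did not overlap and WY-14643 was higher, a pattern of 0.243% of all genes, and in 0 of the 9 it was lower without overlap, against 0.11%. In 3 of the 9 (Vnn1, Pank3 and Ppcs) the WY-14643 library was the higher one of all 5 pairs, a pattern of 5.63% of all genes, and in 0 of the 9 it was the lower one of all 5, against 6.09%. The 9 genes had a median log2 fold change of 0.05, against -0.0061 over all tested genes. Nothing is read from these counts, since the genes were listed with the contrast known.

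**Figure D3:**
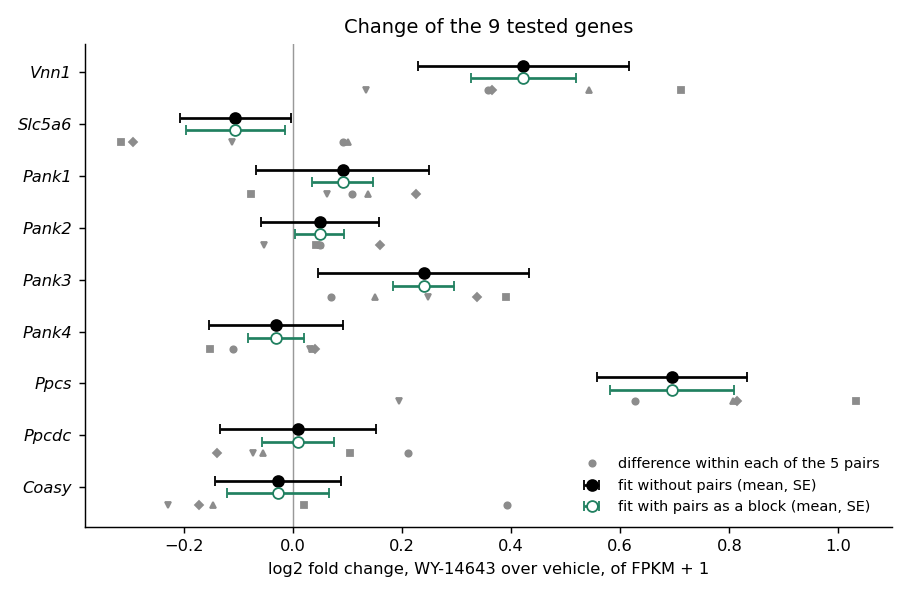
Log2 fold change of FPKM + 1, WY-14643 over vehicle (horizontal axis), for the 9 tested genes. Filled points give the fit without pairs and open points the fit with pairs as a block, both with SE, and small grey symbols give the difference within each pair. Ppcs lies at 0.69, Vnn1 at 0.42 and Pank3 at 0.24, and the other 6 genes between -0.11 and 0.09.

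The order of levels was nearly the same in both groups. From high to low it was Pank3, Ppcs, Pank2, Coasy, Pank4, Pank1, Ppcdc, Vnn1, Slc5a6 and Vnn3 in WY-14643, and Pank3, Coasy, Pank2, Ppcs, Pank4, Pank1, Ppcdc, Slc5a6, Vnn1 and Vnn3 in vehicle libraries. Pank3 did not overlap with the next gene in either group. In WY-14643 libraries Ppcs lay above Pank2 in 5 of 5 without overlap, whereas in vehicle libraries Coasy, Pank2 and Ppcs overlapped as neighbours. Pank4, Pank1 and Ppcdc overlapped as neighbours in both groups, as did Vnn1 and Slc5a6.

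The genes also differed in where their spread lay. Between pairs lay 92.1% of the spread of Pank1, 92.2% of Pank2, 93.4% of Pank4 and 82.8% of Pank3, close to or above the median of all genes. For Ppcs 74.5% lay between treatments and 13.3% between pairs. For Vnn1 these shares were 35.3% and 57.3%. For Coasy 50.8% lay between pairs, 0.726% between treatments and 48.5% in neither. Slc5a6 had the largest share in neither, 60.4%, with 18.4% between pairs and 21.2% between treatments. Pank1 and Pank2 varied together over the 10 libraries (Pearson r = 0.90). So did Vnn1 and Ppcs (r = 0.77), Ppcdc and Coasy (r = 0.77), and Pank2 and Pank3 (r = 0.72). Pank3 ran against Coasy (r = -0.59) and Ppcdc (r = -0.59). These correlations describe libraries that share pairs and are given without a test.

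**Figure D4:**
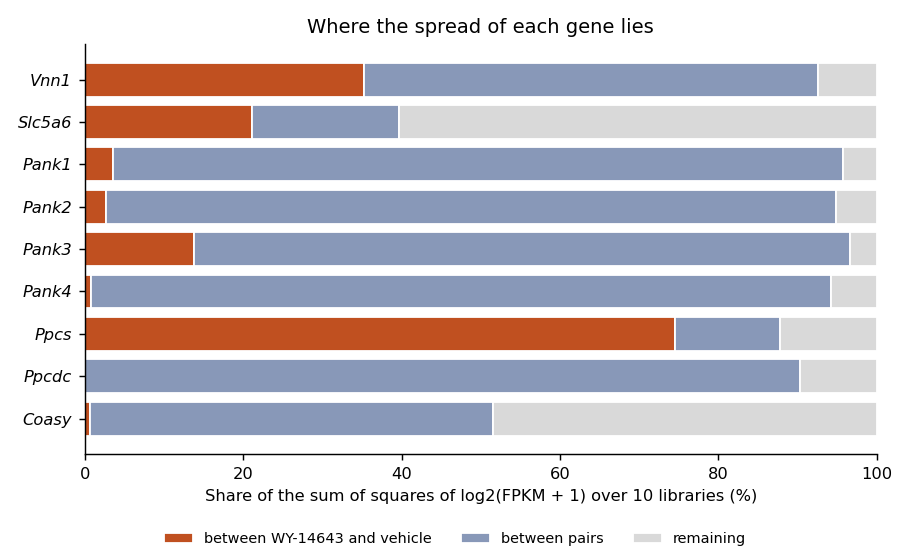
Share of the sum of squares of log2(FPKM + 1) over 10 libraries (horizontal axis, percent) that lies between treatments, between pairs, or in neither, for the 9 tested genes. Ppcs has 74.5% between treatments, and Pank1, Pank2, Pank4 and Ppcdc have over 90% between pairs.

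The genes whose levels followed Vnn1 most closely over the 10 libraries, of 11040 other protein-coding genes, were Atp13a3, a P-type transporter ATPase gene (Pearson r = 0.95), Fermt1, the kindlin-1 gene (0.93), Dhodh, a gene of pyrimidine synthesis (0.92), Invs (0.92) and Def8 (0.91). For Pank1 they were Cox4i1, a subunit of cytochrome c oxidase (r = 0.97), H2az2 (0.97), Taldo1, the transaldolase gene (0.97), Oaz1 (0.96) and Gsta4 (0.96). The highest of many correlations over 10 libraries that share pairs are large for any gene, and they are given as a description of these libraries. Vnn3, at 0 throughout, has no such pattern.

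Genes outside these 10 were read from 5 lists: coenzyme A carriers, coenzyme A diphosphatases, phosphopantetheine transfer, cysteamine to taurine, and biotin. Of their 23 tested members 0 passed without pairs (limma, 0% of all genes). The mitochondrial and peroxisomal carriers Slc25a42, Slc25a16 and Slc25a17 had log2 fold changes between -0.04 and 0.04. The diphosphatases Nudt7 and Nudt19, peroxisomal enzymes that cut coenzyme A, were at 4.17 ± 1.33 and 6.98 ± 1.24 FPKM in WY-14643 and at 3.93 ± 1.42 and 6.84 ± 1.07 FPKM in vehicle libraries. Among genes of phosphopantetheine transfer, Mcat, the mitochondrial malonyl transferase, was at 8.69 ± 0.655 FPKM in WY-14643 and 8.08 ± 1.0 FPKM in vehicle libraries. Fasn, the fatty acid synthase, which carries the phosphopantetheine arm of coenzyme A, was at 38.8 ± 10.8 and 34.8 ± 9.14 FPKM in WY-14643 and vehicle libraries. The 6 tested members of that list had a median log2 fold change of 0.09. Csad, which makes hypotaurine from cysteine sulfinate, was at 4.48 ± 1.21 FPKM in WY-14643 and 3.80 ± 1.31 FPKM in vehicle libraries. Csad was higher in 5 of 5 pairs, as were 5.63% of all tested genes. Ado, which oxidises the cysteamine released by pantetheinases, was at 10.1 ± 1.06 FPKM in WY-14643 and 10.5 ± 1.84 FPKM in vehicle libraries, and Slc6a6, the taurine transporter gene, at 33.1 ± 3.97 and 32.7 ± 2.08 FPKM (SD, n = 5 each throughout).

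Among the 9 biotin-related genes, read because Slc5a6 also carries biotin, Acacb stood apart. It encodes the acetyl-CoA carboxylase whose product restrains fatty acid entry into mitochondria. It was at 2.01, 2.67, 1.60, 0.992 and 0.677 FPKM in WY-14643 replicates 6 to 10, against 0.0667, 0.315, 0.128, 0.0922 and 0.111 FPKM in vehicle replicates 1 to 5. The groups did not overlap and WY-14643 was higher, a pattern of 0.243% of all tested genes. Acacb was called with pairs as a block (limma, log2 fold change 1.13, adjusted p = 0.0481), against 0.287% of all genes called higher. It was not called without pairs (limma, adjusted p = 0.198). The other 8, among them the carboxylase genes Mccc1 and Pcx, had log2 fold changes between -0.18 and 0.06, and 0 of them passed in either fit. For orientation, 9 of 12 listed PPARα target genes were tested. Their median log2 fold change was 0.61, in a range from 0.46 to 3.001. Without pairs 0 of them were called (limma). With pairs as a block 4 (Cpt1a, Ehhadh, Slc25a20 and Pex11a) were called higher (limma), against 0.287% of all genes. Below the filter lay Cyp4a10, at 0 in all libraries, Pdk4 and Acot1. Pdk4 averaged 0.236 FPKM in WY-14643 and 0.00797 FPKM in vehicle libraries, and Acot1 averaged 0.166 and 0.0257 FPKM.

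**Figure D5:**
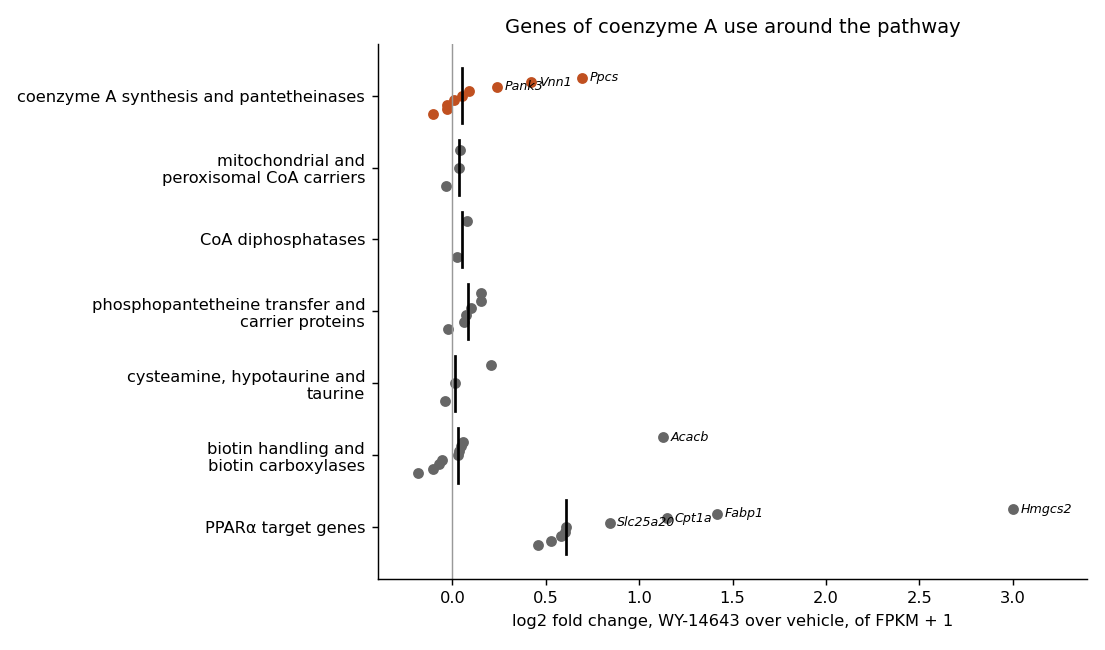
Log2 fold change of FPKM + 1, WY-14643 over vehicle (horizontal axis), of each tested gene in the coenzyme A genes and 6 lists around them, with the median of each list as a black line. The 5 lists other than the PPARα target genes centre between 0.01 and 0.09 with Acacb apart at 1.13, and the PPARα target genes have a median of 0.61.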

How the data were processed

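Polyadenylated RNA of 10 colon organoid libraries was measured. The deposited values are FPKM made by the authors. The submitters' processing notes name HISAT2 2.0.5, build mm39 and featureCounts 1.5.0-p3. Annotation release, strand setting and library scaling: not given in the sources used here. Over genes above 0 in all libraries, the median ratio to the geometric mean was 1.01 in every library. FPKM times kilobases summed to between 959082.5 and 1043426 by library, so the values were not scaled by the total of assigned reads. FPKM times gene length, divided by its smallest value in a library, gave whole numbers for 100% of values above 0 (tolerance 0.01), and these recovered reads served for depth and a voom alternative. Gene length is that of the deposited table, in bases.

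The test took the 13607 genes whose mean FPKM across the 10 libraries reached 0.5, on log2(FPKM + 1) with limma 3.58.1 in R 4.3.3 (trended, robust eBayes, no covariate, Benjamini-Hochberg over all genes, threshold 0.05). The fits were tested on simulated data. The genes and lists were chosen with earlier results of these data known. Named are the 10 genes, the 5 genes most correlated with Vnn1 and with Pank1, and genes within 200 kb of the vanins. Also named are called genes and up to 3 of smallest p per list, and the 2 most abundant genes per marker list. Car4, Cd3e, Lyz2, Muc2, Clca1, Fcgbp, Spdef, Atoh1, Lgr5, Ascl2, Angptl4, Fabp1, Cyp4a10, Pdk4 and Acot1 were chosen after their values were seen. Pairs were formed from the numerical order of libraries, since their deviations correlate; no label gives them. Alternatives were pseudocount, filters, TPM scaling, voom, library weights, pairs as a block, and leaving out libraries or pairs. No 2 libraries agreed within sampling noise (chi-square per degree of freedom at least 8.70). Sequences are from RefSeq and GENCODE M21, and matplotlib 3.10.9 under Python 3.11.15 drew the figures.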

Additional observations from a re-analysis of the deposited data

Results flagged for a closer look

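An outlier check used the Dixon ratio, the gap to the next value over the range of the group, with a limit of 0.71. Ppcs in WY-14643 replicate 7, at 22.8 FPKM and the highest of its group, only just reached the limit, at 0.711. Ppcs in vehicle replicate 5, at 15.6 FPKM and the highest of its group, passed it at 0.795. These were 2 of 18 groups of 5 libraries checked, and chance flags about 1 in 20. The log2 fold change of Ppcs was 0.62 without the WY-14643 library and 0.81 without the vehicle library, with adjusted p of 0.752 and 0.0569 (limma).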

How the results depend on the processing

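Of the 22 alternatives, all kept the direction of Vnn1 (log2 fold change 0.32 to 0.80), Pank3 (0.12 to 0.32), Ppcs (0.61 to 0.82) and Slc5a6 (-0.17 to -0.0022). Ppcs passed with library weights (0.76) and with pairs as a block without pair 5 (0.82), so the count of called members became 1 there. Its adjusted p ran from 0.0175 to 0.884 over the alternatives. The genes near 0 changed sign in some: with library weights Pank4 came to 0.026 and Ppcdc to -0.013. Leaving out a library or a pair gave -0.035 to 0.18 for Pank1, -0.028 to 0.099 for Pank2, -0.086 to 0.052 for Pank4, -0.091 to 0.11 for Ppcdc and -0.13 to 0.030 for Coasy. With the block, Ppcdc came to -0.041 and -0.015 without pairs 1 and 2, and Coasy to 0.0022, 0.0088 and 0.023 without pairs 3, 4 and 5; Coasy was -0.12 without vehicle replicate 1. Over all genes 18 were called higher and 3 lower with library weights, and 39 and 4 with the replicate block, where the members' calls stayed at 0. With the block, leaving out pairs 1 to 5 in turn gave 27, 3, 2, 12 and 30 called higher. Leaving out a library or a pair gave 0 to 30 higher and 0 to 6 lower. In the biotin list 1 gene was called higher with weights and 1 with the block, and 0 to 1 when libraries or pairs were left out. Of the PPARα targets 2 were called with weights, 4 with the block, and 0 to 5 when libraries or pairs were left out. The cause of these differences was not tested. Vnn1 rests on 19 to 118 reads per library, which limits its precision.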

Other observations

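For Ppcs and Pank3, chosen after their values were seen, the protein-coding genes that followed them most closely over the 10 libraries were also read. For Ppcs they were Sgk2, a kinase gene (Pearson r = 0.96), Hadhb, a subunit of the mitochondrial trifunctional protein (0.93), Fbp2, a fructose-1,6-bisphosphatase gene (0.92), Akr1b8, an aldo-keto reductase gene (0.92), and Vwa8 (0.91). Since 74.5% of the spread of Ppcs lay between treatments, these r values largely restate the difference between the groups. They are a description and support nothing. Sgk2 was at 5.38 ± 0.697 FPKM in WY-14643 and 2.26 ± 0.685 FPKM in vehicle libraries, and Hadhb at 15.2 ± 2.70 and 9.52 ± 1.81 FPKM (SD, n = 5 each). For Pank3 they were Tax1bp1 (r = 0.95), Lcorl (0.95), Usf3 (0.93), Scd2, a stearoyl-CoA desaturase gene (0.93), and Edem1 (0.93). Next to the vanins, Slc18b1, a polyamine transporter gene, was at 2.42 FPKM in WY-14643 replicate 6 and 1.38 FPKM in vehicle replicate 1, while it was at most 0.219 FPKM in the other WY-14643 and 0.137 FPKM in the other vehicle libraries.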
